A study of Homo sapiens with 6 samples.

Results

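Nuclear receptors are transcription factors with a DNA-binding domain and, in most members, a pocket that binds a small lipid-soluble ligand such as a thyroid or steroid hormone, a retinoid, an oxysterol or a bile acid. The 46 receptor genes described here were taken from the deposited expression table as the rows whose gene name equals a name on a fixed list of receptors. They make up 46 of the 58735 gene rows, and 32 of the 46 passed a filter of at least 0.5 FPKM (fragments scaled to gene length and library size) in 3 or more of the 6 libraries. The other 14 lay below it and were not tested under it.

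The study profiled RNA of Huh7 cells, an established line grown from a human hepatocellular carcinoma, after short hairpin RNA (shRNA) knockdown of TRIM15, a gene of the tripartite motif family of E3 ubiquitin ligases. The samples were 3 libraries of cells carrying the TRIM15 hairpin (shTRIM15) and 3 libraries of cells carrying a control hairpin (shcontrol), all in the same line and medium. The study's title names the AKT/FOXO1 axis, LASP1 and the sensitivity of liver cancer cells to kinase inhibitors, and no inhibitor treatment is given for these 6 samples. All of them are 1 cell line, the number and sequence of the hairpins are not given, and nothing says that the replicates were separate cultures, so p-values measure the spread between these libraries, which may be technical.

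A receptor without its ligand commonly sits with corepressor complexes that hold target genes down, and ligand binding exchanges these for coactivators. Thyroid, retinoid, fatty acid, oxysterol and bile acid receptors pair with a retinoid X receptor (RXR) on DNA, steroid receptors mostly bind as homodimers after release from chaperones, and several orphan receptors act as constitutive activators or as repressors. In hepatocytes, HNF4A maintains liver gene expression, LXR and PPAR receptors adjust lipid metabolism, and FXR, its target SHP and LRH-1 form the feedback circuit of bile acid synthesis.

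The libraries held 18664890, 19556855 and 17332508 reads in shTRIM15 cells and 18143502, 17715210 and 18217903 reads in shcontrol cells, counted back from the FPKM values. TRIM15 (chr6:30163206-30172696, GRCh38) had 3.23, 2.11 and 2.51 FPKM in shTRIM15 cells, against 5.17, 5.09 and 4.88 FPKM in shcontrol cells, a mean of 51.8% of control with no overlap (log2 fold change -0.75, SE 0.106, adjusted p = 0.00416; exact two-sided permutation test p = 0.1, the smallest that 3 against 3 libraries allow). All 12 hepatocyte markers passed the filter, and 0 rose and 2 fell, beside 8.93% and 10.1% of all tested genes. Their summed level was 1592 to 1626 FPKM in shTRIM15 and 1600 to 1637 FPKM in shcontrol libraries. Of the markers of other cell types, 6 of 6 endothelial, 5 of 7 immune and 5 of 8 fibroblast markers stayed under 0.5 FPKM in every library. CDH5 (endothelial), MS4A1 (B cell) and THY1 (fibroblast) were at 0 in all 6. The immune markers above this level were CD14 and LYZ. CD14 had 13.3 to 14.1 FPKM in shTRIM15 and 13.4 to 14.5 FPKM in shcontrol libraries. LYZ had 3.04 to 3.79 FPKM in shTRIM15 and 2.84 to 3.47 FPKM in shcontrol libraries. Neither passed the test. The fibroblast list summed to 55.6 to 57.8 FPKM in shTRIM15 and 62.5 to 66.2 FPKM in shcontrol libraries, nearly all of it LUM, and LUM and COL1A2 both fell (log2 fold changes of -0.18). These 2 calls became 1 in each fit that left out 1 library. COL1A1, also tested, had a log2 fold change of 0.0072 (adjusted p = 0.965), and COL3A1, not tested, averaged 0.30 ± 0.0104 FPKM in shTRIM15 and 0.194 ± 0.0342 FPKM in shcontrol cells. The part of the lower fibroblast list sum in the results below was not tested. In bulk RNA, fewer cells of a type and less RNA per cell cannot be told apart.

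Huh7 cells expressed a receptor set led by an orphan. NR2F6 (EAR2, an orphan repressor of the COUP-TF group) stood highest at 90.2 ± 0.908 FPKM in shTRIM15 and 84.6 ± 2.13 FPKM in shcontrol cells (SD, n = 3 each), and alone it made up 29.6 ± 0.519% and 29.2 ± 0.575% of the summed FPKM of the 46 genes. HNF4A was next, followed by NR1H2, ESRRA, NR5A2, NR2F1 and RXRB. These 7 genes averaged at least 10 FPKM over the 6 libraries, 9 further genes averaged between 5 and 10 FPKM, 12 between 1 and 5 FPKM and 4 between 0.5 and 1 FPKM. NR5A2, NR2F1 and RXRB followed each other closely, and in shcontrol cells RXRB (8.47 to 9.86 FPKM) overlapped RXRA (9.14 to 9.18 FPKM) and PPARG (9.28 to 10.0 FPKM).

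**Figure D1:**
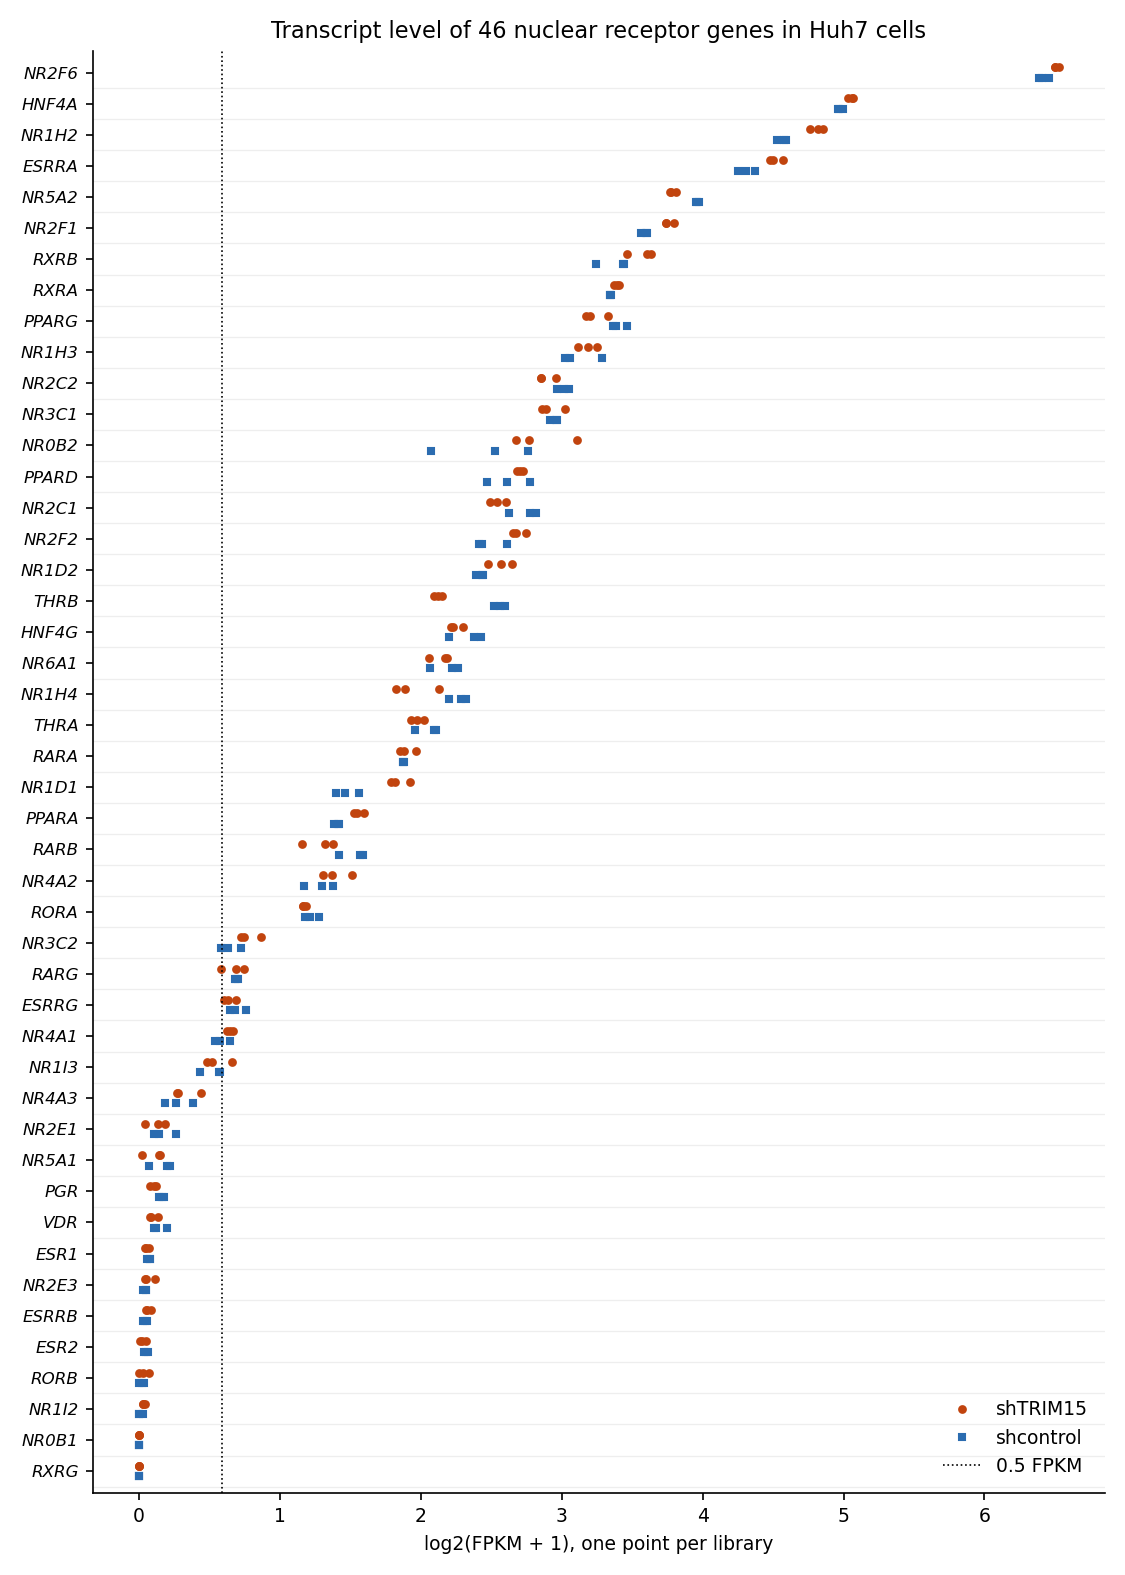
Level of each nuclear receptor gene as log2(FPKM + 1) in the 3 shTRIM15 and 3 shcontrol libraries, 1 point per library, with genes ordered by their mean FPKM. NR2F6 stands above every other receptor at 82.8 to 91.3 FPKM, and the lowest 14 genes lie under the filter.

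The 14 genes that failed the filter included receptors known for large roles in normal liver. The xenobiotic sensors PXR (NR1I2) and CAR (NR1I3) had 9 and 165 reads in all 6 libraries together, with CAR at 0.577, 0.398 and 0.431 FPKM in shTRIM15 and 0.485, 0.480 and 0.350 FPKM in shcontrol cells. CAR shares 661 exonic bases, 20% of its exonic length, with the more abundant TOMM40L on the opposite strand. TOMM40L averaged 4.56 ± 0.0764 FPKM in shTRIM15 and 4.80 ± 0.396 FPKM in shcontrol cells. Its part in the CAR values was not tested. The vitamin D receptor VDR had 55 reads, the oestrogen receptor ESR1 had 66 and the progesterone receptor PGR had 159. RXRG and NR0B1 (DAX1) had 0 reads in every library, where 3 reads would have given 0.0563 to 0.0634 FPKM for RXRG and 0.0689 to 0.0776 FPKM for NR0B1. RORB, NR2E1, NR2E3, ESR2, ESRRB, NR4A3 and NR5A1 were also under 0.5 FPKM in all 6 libraries. These 14 genes were not tested under the filter. RXRG and NR0B1 were in no fit. The others entered only a fit with no filter, and none was called there, on these few reads. At the edge of the filter, NR4A1 just passed with 3 shTRIM15 and 1 shcontrol libraries at 0.5 FPKM or more, and NR3C2 with 3 and 2, whereas CAR just failed with 1 and 0.

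Of the 32 tested receptors, 5 rose and 3 fell in shTRIM15 cells at an adjusted p under 0.05. The rises were NR1D1, NR1H2, ESRRA, NR2F1 and NR2F6, and the falls were THRB, NR1H4 and NR5A2. These 8 calls are 25% of the tested members, beside 19.0% of all 14847 genes tested. By direction, 8.93% of all tested genes rose and 10.1% fell. The changes were small, the largest being a log2 fold change of -0.44 for THRB. The median log2 fold change of the 32 was 0.05, beside 0.0014 over all tested genes, and the median absolute value was 0.13, beside 0.098. The shTRIM15 and shcontrol libraries did not overlap for 18 of the 32 receptors (56.25%), beside 37.8% of all tested genes. The summed level of the 46 genes was 303 to 309 FPKM in shTRIM15 and 288 to 292 FPKM in shcontrol libraries.

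**Figure D2:**
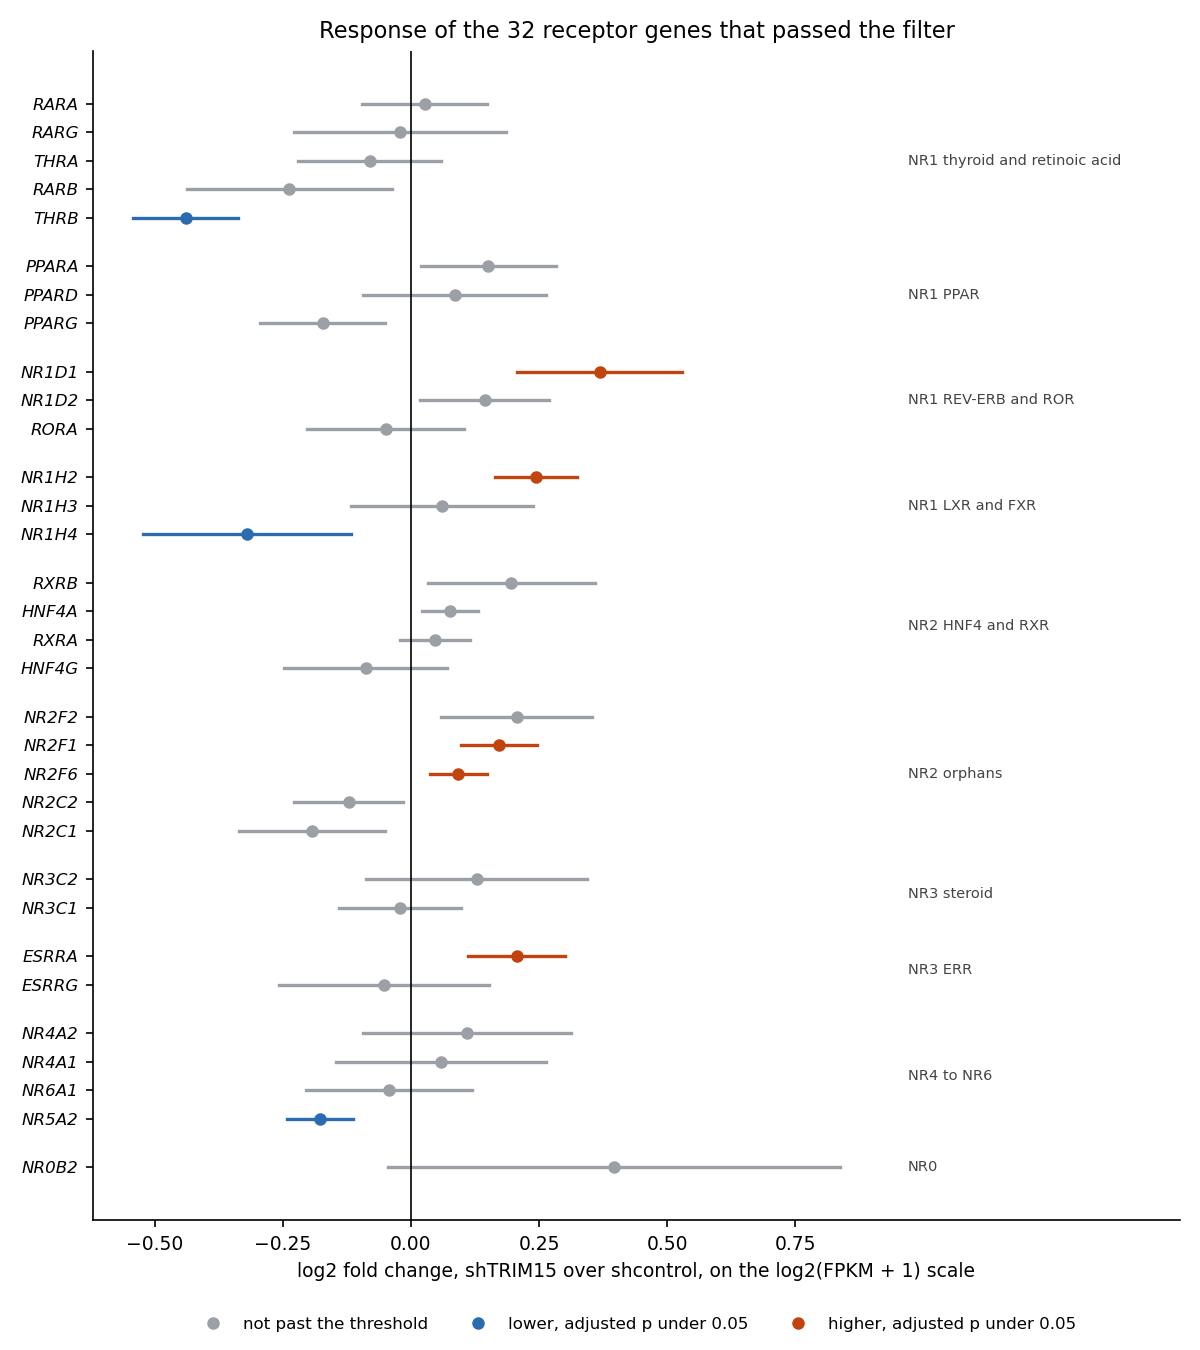
Log2 fold change of each tested receptor, shTRIM15 over shcontrol, on the log2(FPKM + 1) scale with 95% intervals from limma, coloured by call. THRB lies lowest at -0.44, and NR1D1 is the highest of the called genes at 0.37.

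Among the receptors for thyroid hormone and retinoic acid, THRB (chr3:24117153-24495756, minus strand), which encodes the thyroid hormone receptor beta that predominates in liver, showed the largest change of any receptor. It had 3.27, 3.35 and 3.44 FPKM in shTRIM15 cells, against 4.73, 5.06 and 4.92 FPKM in shcontrol cells (means 3.35 ± 0.0834 and 4.90 ± 0.169, SD, n = 3 each). Every shTRIM15 library lay below every shcontrol library, and the mean was 68.4% of control (log2 fold change -0.44, SE 0.0431, adjusted p = 0.00112). The other thyroid hormone receptor gene, THRA, averaged 2.93 ± 0.128 FPKM in shTRIM15 and 3.16 ± 0.233 FPKM in shcontrol cells with overlapping groups (log2 fold change -0.08, adjusted p = 0.408). THRB therefore supplied 51.7, 54.4 and 54.1% of the summed THRA and THRB level in shTRIM15 libraries, against 59.1, 63.7 and 59.7% in shcontrol libraries. The retinoic acid receptors did not pass the test: RARB averaged 1.44 ± 0.190 FPKM in shTRIM15 and 1.88 ± 0.183 FPKM in shcontrol cells without overlap (adjusted p = 0.0987), and RARA and RARG had log2 fold changes of 0.03 and -0.02.

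The fatty acid receptors of the PPAR family were all expressed and none passed the test. PPARG, the regulator of lipid storage, led them with 9.04, 8.20 and 8.0 FPKM in shTRIM15 cells, against 9.28, 9.47 and 10.0 FPKM in shcontrol cells (log2 fold change -0.17, adjusted p = 0.0604). Its groups did not overlap, and without shTRIM15 replicate 1 its adjusted p was 0.0329. Without any other single library PPARG was not called, at adjusted p values of 0.0804 to 0.166. PPARA, the fasting-state activator of hepatic fatty acid oxidation, was the lowest of the family at 1.94 ± 0.0724 FPKM in shTRIM15 and 1.65 ± 0.0305 FPKM in shcontrol cells, again without overlap (log2 fold change 0.15, adjusted p = 0.106). PPARD, the ubiquitous member, had 5.51, 5.42 and 5.62 FPKM in shTRIM15 cells and 5.83, 5.12 and 4.54 FPKM in shcontrol cells, and the groups overlapped (adjusted p = 0.495). As shares of the summed PPAR level, PPARG made up 53.0 ± 1.49% in shTRIM15 and 58.5 ± 3.23% in shcontrol libraries, and PPARA 12.2 ± 0.0922% and 10.0 ± 0.199%.

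The oxysterol receptors LXR alpha and beta are encoded by NR1H3 and NR1H2. NR1H2 (chr19:50329653-50382982, plus strand) had 27.2, 26.1 and 27.9 FPKM in shTRIM15 cells, against 22.9, 22.1 and 23.1 FPKM in shcontrol cells. All shTRIM15 libraries were above all shcontrol libraries, and NR1H2 rose to 119% of control (log2 fold change 0.24, SE 0.0335, adjusted p = 0.00378). NR1H3, the LXR of liver and fat, had 8.53, 8.12 and 7.65 FPKM in shTRIM15 cells and 8.75, 7.35 and 7.13 FPKM in shcontrol cells. Its groups overlapped and it did not pass the test (log2 fold change 0.06, 95% interval -0.12 to 0.24, adjusted p = 0.633).

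The bile acid circuit held falls of both FXR and LRH-1. NR1H4 (chr12:100473708-100564413, plus strand), which encodes the bile acid receptor FXR, had 3.38, 2.69 and 2.55 FPKM in shTRIM15 cells, against 3.87, 3.98 and 3.59 FPKM in shcontrol cells. The groups did not overlap, although shTRIM15 replicate 1 lay close to the lowest shcontrol library, and the mean was 75.3% of control (log2 fold change -0.32, SE 0.0859, adjusted p = 0.0429). That call held without shTRIM15 replicate 1 (adjusted p = 0.0134). It was lost without any other single library, at adjusted p values of 0.103, 0.119 and 0.0695 without shcontrol replicates 1, 2 and 3 and of 0.119 and 0.118 without shTRIM15 replicates 2 and 3. NR5A2 (chr1:200027602-200177424, plus strand), which encodes LRH-1, the activator of bile acid synthesis genes, had 12.6, 13.1 and 12.7 FPKM in shTRIM15 cells, against 14.6, 14.7 and 14.5 FPKM in shcontrol cells. It fell by 0.18 on the log2 scale (SE 0.0275, adjusted p = 0.00608), with each group tightly clustered and no overlap. NR0B2 encodes SHP, the repressor that FXR induces and that acts on LRH-1. It had 7.61, 5.39 and 5.82 FPKM in shTRIM15 cells, against 3.21, 5.78 and 4.77 FPKM in shcontrol cells. These values rest on 166, 123 and 118 reads in shTRIM15 and 67, 118 and 100 reads in shcontrol libraries, the groups overlapped, and the log2 fold change of 0.40 did not pass the test (95% interval -0.04 to 0.84, adjusted p = 0.194).

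The promoter windows of both fallen receptors of this circuit and of the risen clock receptor NR1D1 are shown to place the AGGTCA hexamer, the core element to which many nuclear receptors bind, near these genes' own starts. The windows run from 250 bases before to 50 bases after a start in RefSeq (GRCh38.p14), 5′ to 3′ on the gene's strand, with the hexamer or its reverse complement in capitals. The windows are chr1:200027460-200027759 (plus strand) for NR5A2, chr12:100503110-100503409 (plus strand) for NR1H4 and chr17:40100540-40100839 (minus strand) for NR1D1.
NR5A2: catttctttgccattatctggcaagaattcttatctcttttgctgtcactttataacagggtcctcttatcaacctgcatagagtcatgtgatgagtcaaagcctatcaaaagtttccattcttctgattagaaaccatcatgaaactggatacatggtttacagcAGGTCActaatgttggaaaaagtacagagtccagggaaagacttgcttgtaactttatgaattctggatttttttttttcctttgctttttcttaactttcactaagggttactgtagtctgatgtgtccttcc
NR1H4: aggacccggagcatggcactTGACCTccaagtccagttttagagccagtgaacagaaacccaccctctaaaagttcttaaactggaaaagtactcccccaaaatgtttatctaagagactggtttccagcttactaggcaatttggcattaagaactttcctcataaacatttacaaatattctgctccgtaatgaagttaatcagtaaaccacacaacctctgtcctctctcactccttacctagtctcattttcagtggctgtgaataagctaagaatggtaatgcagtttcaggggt
NR1D1: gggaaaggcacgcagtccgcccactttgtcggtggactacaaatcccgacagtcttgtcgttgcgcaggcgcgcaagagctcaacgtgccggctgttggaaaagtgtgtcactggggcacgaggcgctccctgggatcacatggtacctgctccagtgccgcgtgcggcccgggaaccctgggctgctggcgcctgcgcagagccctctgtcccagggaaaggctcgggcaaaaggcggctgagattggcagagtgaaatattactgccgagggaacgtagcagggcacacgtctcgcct
The hexamer stands at -84 from the start in NR5A2 and, as TGACCT, at -230 in NR1H4, and the NR1D1 window holds none. The NR1H4 window lies inside the annotated gene, downstream of its first start at 100473708. The NR5A2 and NR1D1 windows span the first annotated starts, at 200027602 and 40100725, and the RefSeq starts used lie downstream of these. The NR5A2 hexamer therefore also lies inside the annotated gene. Searched on both strands, AGGTCA was found in the windows of 7 of the 41 receptors that had one (RARA, PPARG, NR1H3, NR1H4, RXRG, NR5A2 and NR0B1), beside 13.9% of 27305 promoters. The E-box CACGTG was found in 4 of 41 receptors (NR2C1, NR2F2, PGR and NR5A1), beside 7.43% of promoters, and the GC box GGGCGG in 23 of 41, beside 44.6%. Among the receptors, no match of 1 motif overlapped a match of another. VDR, HNF4G, NR2F6, NR4A2 and NR0B2 had no window. A match is a run of letters and does not show that a factor binds there.

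The clock receptors REV-ERB alpha and beta (NR1D1 and NR1D2) are heme-binding repressors of ARNTL that oppose the ROR activators. NR1D1 (chr17:40092787-40100725, minus strand) had 2.45, 2.52 and 2.80 FPKM in shTRIM15 cells, against 1.76, 1.64 and 1.95 FPKM in shcontrol cells. All shTRIM15 libraries stood above all shcontrol libraries, and NR1D1 rose to 145% of control (log2 fold change 0.37, SE 0.0681, adjusted p = 0.0115), on 128, 138 and 136 reads in shTRIM15 and 88, 80 and 98 reads in shcontrol libraries. Its exons overlap those of THRA on the opposite strand by 263 bases, 9.49% of its exonic length, and whether counting used strand is not given. The part of this overlap in the NR1D1 values was not tested. NR1D2 was higher in all 3 shTRIM15 libraries (4.92 ± 0.354 FPKM in shTRIM15 and 4.35 ± 0.0961 FPKM in shcontrol cells) and did not pass the test (log2 fold change 0.14, adjusted p = 0.108). RORA averaged 1.25 ± 0.0200 FPKM in shTRIM15 and 1.33 ± 0.0816 FPKM in shcontrol cells (adjusted p = 0.655).

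**Figure D3:**
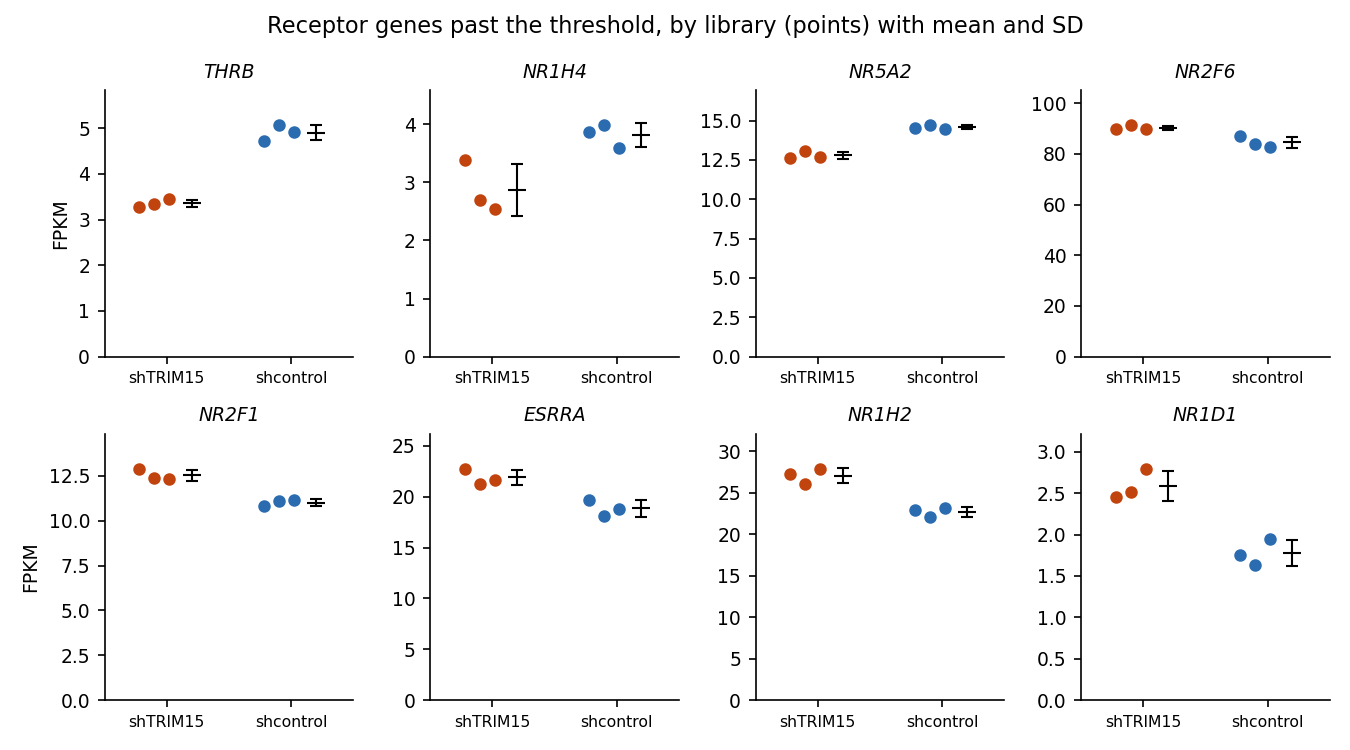
FPKM of the 8 called receptors in each of the 3 shTRIM15 and 3 shcontrol libraries, with the group mean and SD. In each panel the groups do not overlap. In FPKM the gap is narrowest for NR1H4, where 3.38 FPKM in shTRIM15 replicate 1 lies under 3.58 FPKM in shcontrol replicate 3. Relative to level it is narrowest for NR2F6, where 89.7 FPKM in shTRIM15 replicate 3 lies above 86.9 FPKM in shcontrol replicate 1.

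Neither HNF4A nor the common partner RXR passed the test. HNF4A, the hepatocyte identity factor, had 32.3, 32.5 and 31.7 FPKM in shTRIM15 cells, against 30.1, 30.9 and 30.3 FPKM in shcontrol cells. The groups did not overlap, with a log2 fold change of 0.08 (95% interval 0.02 to 0.13, adjusted p = 0.0634). RXRB had 11.4, 10.0 and 11.2 FPKM in shTRIM15 cells, against 9.86, 9.81 and 8.47 FPKM in shcontrol cells (log2 fold change 0.20, adjusted p = 0.0959). RXRB shares 244 exonic bases with SLC39A7 on the opposite strand, and the far more abundant SLC39A7 rose (95.2 ± 1.17 FPKM in shTRIM15 and 85.3 ± 0.734 FPKM in shcontrol cells, log2 fold change 0.16, adjusted p = 0.0023). Its part in the RXRB values was not tested. RXRA had 9.36, 9.50 and 9.62 FPKM in shTRIM15 cells and 9.15, 9.18 and 9.14 FPKM in shcontrol cells (log2 fold change 0.05, adjusted p = 0.321). HNF4G averaged 3.75 ± 0.146 FPKM in shTRIM15 and 4.06 ± 0.406 FPKM in shcontrol cells (adjusted p = 0.424).

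Among the orphan receptors of the COUP-TF group, which mostly repress transcription, NR2F1 and NR2F6 rose. NR2F1 (COUP-TFI, chr5:93583224-93594615, plus strand) had 12.9, 12.4 and 12.3 FPKM in shTRIM15 cells, against 10.8, 11.1 and 11.1 FPKM in shcontrol cells. The groups were well apart (log2 fold change 0.17, SE 0.0314, adjusted p = 0.0110). NR2F6 (chr19:17231883-17245940, minus strand) had 89.7, 91.3 and 89.7 FPKM in shTRIM15 cells, against 86.9, 84.0 and 82.8 FPKM in shcontrol cells. It rose by 0.09 on the log2 scale (SE 0.0234, adjusted p = 0.0354), the smallest change among the 8 calls. That call held without shcontrol replicate 1 (adjusted p = 0.0194). It was lost without any other single library, at 0.104 and 0.0868 without shcontrol replicates 2 and 3 and at 0.0843, 0.110 and 0.0854 without shTRIM15 replicates 1, 2 and 3.

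NR2F2 (COUP-TFII) had 5.40, 5.70 and 5.30 FPKM in shTRIM15 cells, against 4.32, 4.41 and 5.11 FPKM in shcontrol cells. Its groups did not overlap, its log2 fold change was 0.21, and its adjusted p was 0.0610, and 0.0200 without shcontrol replicate 3. Without any other single library the adjusted p was 0.110 to 0.163. The testicular orphan receptors stood lower in shTRIM15 cells, also without overlap. NR2C1 had 4.82, 4.63 and 5.09 FPKM in shTRIM15 cells, against 5.19, 6.06 and 5.83 FPKM in shcontrol cells (log2 fold change -0.19, adjusted p = 0.0685, and 0.0280 without shcontrol replicate 1). Its adjusted p was 0.0930 to 0.178 without any other single library. NR2C2 had 6.23, 6.79 and 6.23 FPKM in shTRIM15 cells, against 7.28, 7.09 and 6.82 FPKM in shcontrol cells (log2 fold change -0.12, adjusted p = 0.111). NR2C2 shares 1197 exonic bases, 10.1% of its exonic length, with MRPS25 on the opposite strand. MRPS25 averaged 14.5 ± 0.260 FPKM in shTRIM15 and 14.2 ± 0.127 FPKM in shcontrol cells, and its part in the NR2C2 values was not tested.

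Of the oestrogen-related receptors, orphans that drive mitochondrial genes with PGC1 coactivators, ESRRA rose. ESRRA (chr11:64305572-64316743, plus strand) had 22.7, 21.2 and 21.7 FPKM in shTRIM15 cells, against 19.7, 18.1 and 18.8 FPKM in shcontrol cells, with no overlap (log2 fold change 0.21, SE 0.0401, adjusted p = 0.0138). It shares 284 exonic bases, 9.37% of its exonic length, with TRMT112 on the opposite strand. TRMT112 rose too, averaging 73.2 ± 0.860 FPKM in shTRIM15 and 65.2 ± 2.12 FPKM in shcontrol cells (log2 fold change 0.16, adjusted p = 0.0078), and its part in the ESRRA values was not tested. ESRRG was near the filter at 0.561 ± 0.0462 FPKM in shTRIM15 and 0.620 ± 0.0685 FPKM in shcontrol cells (adjusted p = 0.726).

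The glucocorticoid receptor NR3C1 was the only one of the 5 receptors for steroid hormones listed here that averaged above 1 FPKM. It had 6.42, 7.12 and 6.26 FPKM in shTRIM15 cells and 6.53, 6.76 and 6.83 FPKM in shcontrol cells, and the groups overlapped (log2 fold change -0.02, 95% interval -0.14 to 0.10, adjusted p = 0.810). The mineralocorticoid receptor NR3C2 averaged 0.713 ± 0.0929 FPKM in shTRIM15 and 0.567 ± 0.0792 FPKM in shcontrol cells (adjusted p = 0.388). The immediate early receptors NR4A1 and NR4A2 and the germ cell nuclear factor NR6A1 had log2 fold changes of 0.06, 0.11 and -0.04 (adjusted p of 0.702, 0.438 and 0.718).

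Receptors work through cofactors and chaperones, and these lists held calls in both directions. Over all tested genes, 8.93% rose and 10.1% fell. Of 22 tested coactivators, 3 rose and 4 fell. The fall of NCOA7 was the largest, with 11.1, 11.7 and 11.8 FPKM in shTRIM15 cells, against 16.4, 16.2 and 17.0 FPKM in shcontrol cells (log2 fold change -0.49), and TRIM24 and NCOA6 fell by 0.26 and 0.19 on the log2 scale. The classical p160 coactivators NCOA1, NCOA2 and NCOA3 did not pass the test, with log2 fold changes of -0.02, -0.0046 and -0.11. Of 17 tested corepressors, 2 rose and 3 fell. TBL1XR1, an exchange factor of the NCOR complexes, fell by 0.37 and RCOR1 fell by 0.21, whereas the deacetylase HDAC1 rose (log2 fold change 0.23). The corepressor NCOR1 had a log2 fold change of 0.04 and did not pass. Of 17 tested steroid receptor chaperones, 3 rose and 3 fell, among them HSPA8 (-0.30), the cyclophilin PPID (-0.32) and the HSP90 activator AHSA1 (0.28).

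The genes that supply ligands also moved in both directions, beside 8.93% of all tested genes that rose and 10.1% that fell. Of 9 tested retinoid supply genes, 1 rose and 2 fell, with the retinol dehydrogenase RDH11 at -0.21, the fatty acid and retinoic acid carrier FABP5 at -0.19 and the retinal reductase DHRS3 at 0.16. Of 8 tested genes of thyroid hormone and vitamin D supply, only DHCR7, which consumes the vitamin D precursor, was called (0.18, rose). Of 14 tested genes of steroid and bile acid supply, 3 rose and 3 fell. The steroid sulfatase STS had the largest change at -0.40, with 1.47, 1.65 and 1.66 FPKM in shTRIM15 cells, against 2.30, 2.44 and 2.52 FPKM in shcontrol cells, followed by HSD17B12 at -0.35.

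Target gene lists are given beside their receptors. They are textbook targets, and calls within them may have other inputs. The counts stand beside 8.93% of all tested genes that rose and 10.1% that fell. Of 8 tested FXR targets, 4 rose and 0 fell, with a median log2 fold change of 0.11 for the list. SDC1 had 24.3, 23.8 and 24.6 FPKM in shTRIM15 cells, against 18.9, 18.6 and 18.0 FPKM in shcontrol cells (log2 fold change 0.37). FGF19, the bile acid-induced hormone, and its receptor FGFR4 rose by 0.23 and 0.22. CYP7A1, the rate-limiting enzyme of bile acid synthesis and a gene that this circuit represses, was at 0 in all 6 libraries. NR1H4 itself fell in the same libraries. Of 11 tested LXR targets, 4 rose and 1 fell. MYLIP, the ligase that degrades the LDL receptor, rose by 0.26 and the lipogenic regulator SREBF1 by 0.17, whereas the abundant desaturase SCD fell, with 400, 397 and 398 FPKM in shTRIM15 cells, against 450, 455 and 461 FPKM in shcontrol cells (log2 fold change -0.19).

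**Figure D4:**
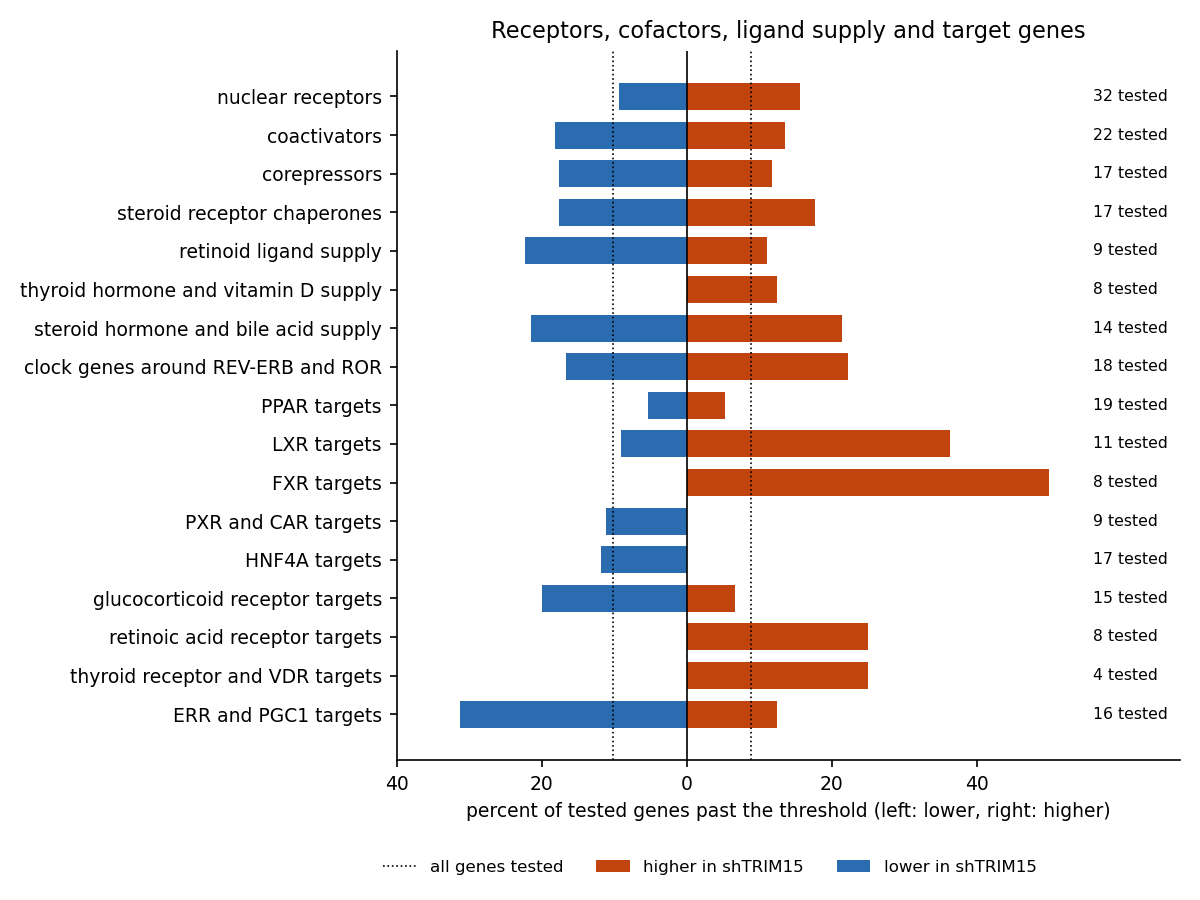
Share of tested genes called higher and lower in shTRIM15 libraries for the receptors and companion lists, beside the shares over all tested genes. The cell type marker lists are not drawn. The FXR target list has 4 of 8 genes higher and 0 lower, and the HNF4A target list has 0 of 17 higher and 2 lower.

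The clock list and the ERR list held calls in both directions, beside 8.93% of all tested genes that rose and 10.1% that fell. Of 18 tested clock genes, 4 rose and 3 fell. ARNTL2, a paralog of the core clock activator ARNTL, fell by 0.46, whereas the clock repressor BHLHE40 rose by 0.33. ARNTL, the classical REV-ERB target, did not pass (log2 fold change -0.06, adjusted p = 0.610). Of 16 tested ERR and PGC1 targets, 2 rose and 5 fell, among them the mitochondrial transcription factor TFAM with 14.2, 13.1 and 12.9 FPKM in shTRIM15 cells, against 18.0, 19.3 and 19.9 FPKM in shcontrol cells (log2 fold change -0.47). In the same list cytochrome c (CYCS) fell by 0.29.

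The other target lists had between 1 and 4 calls each, 2 of 19 for PPAR, 2 of 17 for HNF4A, 1 of 9 for PXR and CAR, 4 of 15 for the glucocorticoid receptor, 2 of 8 for the retinoic acid receptors and 1 of 4 for the thyroid and vitamin D receptors, beside 19.0% of all tested genes. Of 19 tested PPAR targets, 1 rose (ACAA1, 0.17) and 1 fell (the lipid droplet protein PLIN2, -0.23). Of 17 tested HNF4A targets, 0 rose and 2 fell, transferrin (TF, -0.09) and angiotensinogen (AGT, -0.08). Of 9 tested PXR and CAR targets, 1 fell (the efflux pump ABCB1, -0.12), and CYP3A4, the leading PXR target of liver, averaged 0.0561 ± 0.0172 FPKM in shTRIM15 and 0.0415 ± 0.0109 FPKM in shcontrol cells and was not tested. Of 15 tested glucocorticoid receptor targets, PER1 rose by 0.28 and 3 fell, among them CDKN1C (-0.26) and MT2A (-0.23), while the sensitive target FKBP5 averaged 3.07 FPKM in both groups (SD 0.137 in shTRIM15 and 0.0626 in shcontrol, n = 3 each). Of 8 tested retinoic acid receptor targets, TNIP1 and DHRS3 rose by 0.16. Of 4 tested thyroid receptor and VDR targets, ME1, a hepatic thyroid hormone target, rose by 0.17, in the libraries in which THRB fell.

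A fit of the recovered whole reads (limma voom), which changes both the input and the weighting, called 18 of the 32 receptors, 11 higher and 7 lower, beside 27.4% of all tested genes. The added calls were RARB, PPARG, NR2C1 and NR2C2 among the lower and PPARA, NR1D2, HNF4A, RXRB, NR2F2 and NR0B2 among the higher. THRB, NR1D1, NR1H2, ESRRA, NR2F1 and NR5A2 were called in the same direction in all 16 settings tried, and NR2F6 and NR1H4 in 8 of them each.

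Of the 41 genes that the naming rule took from the companion and marker lists, 29 were called in all 16 settings. The 12 others were NCOA6, RCOR1, DHRS3, HSD17B10, FGF19, ABCB1, TF, AGT, PER1, CDKN1C, MT2A and COL1A2. When 1 library at a time was left out, the FXR list kept 3 to 4 higher calls and 0 lower calls. The LXR list had 2 to 4 higher calls, with 2 without shcontrol replicate 2 and without shTRIM15 replicates 2 and 3. The clock list had 1 to 3 higher calls, with 1 without shTRIM15 replicate 1, and 3 lower calls each time. The ERR and PGC1 list had 1 higher and 4 lower calls each time. The 3 higher calls among steroid receptor chaperones became 2 each time. The corepressor list kept 2 higher calls and had 2 to 3 lower calls. Thyroid hormone and vitamin D supply had 0 to 1 lower calls, and the hepatocyte markers had 0 to 1 higher calls. The higher coactivator calls ranged from 0 without shTRIM15 replicate 3 to 3 without shTRIM15 replicate 1, with 4 lower calls each time. The higher calls among steroid and bile acid supply genes ranged from 0 (without shTRIM15 replicate 3 and without shcontrol replicate 3) to 2. Lower calls in that list ranged from 2 to 4. The lower calls among HNF4A targets and among glucocorticoid receptor targets ranged from 0 to 1. The 1 higher call among glucocorticoid receptor targets became 0 without shTRIM15 replicate 1 and 2 without shTRIM15 replicate 2. The 1 lower call among PXR and CAR targets became 0 without shcontrol replicate 2 and without each shTRIM15 replicate. Without shcontrol replicate 2 and without shTRIM15 replicate 3, the 1 higher call in retinoid supply became 0 and the 2 higher calls among retinoic acid receptor targets became 1. The 2 lower calls among hepatocyte markers became 1 in each of these fits except without shcontrol replicate 1. Among thyroid and vitamin D receptor targets the 1 higher call became 2 without shTRIM15 replicate 3.

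**Figure D5:**
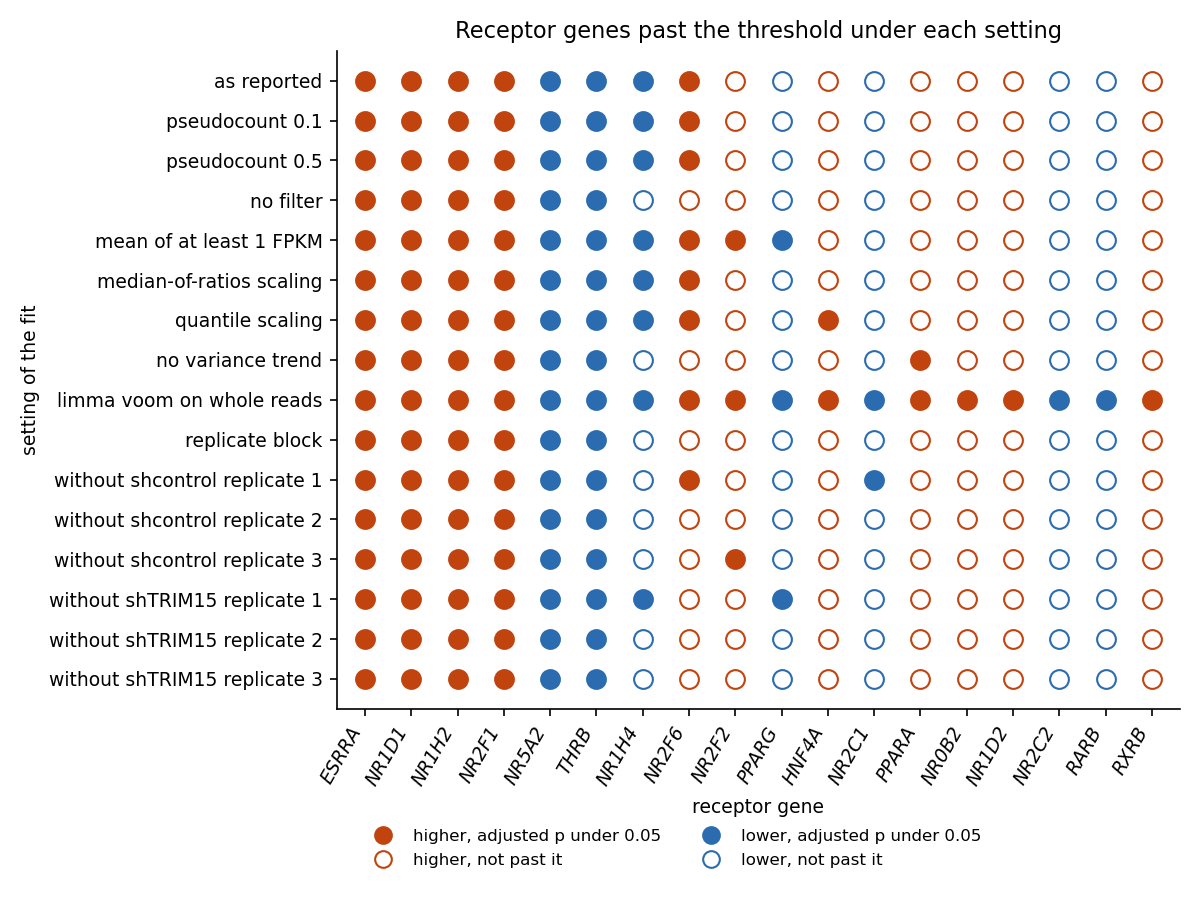
Direction and call of each receptor (columns) that passed the threshold in at least 1 of the 16 settings (lines), with the colour for higher or lower in shTRIM15 libraries and filled marks where the adjusted p is under 0.05. THRB, NR1D1, NR1H2, ESRRA, NR2F1 and NR5A2 are filled in all 16, and NR2F6 and NR1H4 in 8.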

How the data were processed

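RNA of 6 Huh7 samples, enriched for mRNA, was sequenced after a directional (strand-marking) library preparation, per the labels' protocols. The deposited table, made by the authors, holds FPKM per gene and library with a gene length column, per the file headers. Aligner, counting tool and use of strand are not given in the sources used here. The submitters' processing notes name mm10, a mouse build, but all 58735 identifiers with start, end and strand equal the human annotation GENCODE 29 (GRCh38), which gives the coordinates. Whole reads were recovered from the product of FPKM and gene length, which came out whole for 100% of values in every library (tolerance 0.01 reads). The implied library size differed from the read sum by 1.04 to 1.27% in shTRIM15 and by -0.370 to -0.359% in shcontrol libraries.

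The 14847 genes with at least 0.5 FPKM in 3 or more libraries were fitted as log2(FPKM + 1), which understates changes of low genes, with limma 3.58.1 in R 4.3.3 (variance trend, two-sided). Adjusted p values are Benjamini-Hochberg over all of them, with a threshold of 0.05, and fold changes are shTRIM15 over shcontrol. The count test on recovered reads was limma voom. Depth limits genes of few reads, and floors (3 reads) cover counting error only. The intervals given with fold changes are from limma and measure the spread between these libraries, which may be technical. The 15 alternatives were 2 pseudocounts, 2 filters, 2 scalings, no variance trend, voom, a replicate block and leaving out each library. No pair of libraries was a duplicate (chi-square per gene 1.87 to 2.61).

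The receptors and the 20 companion lists were chosen with earlier results of these data known, so counts over them are descriptions. Values per library are given for each receptor that was called or averaged at least 5 FPKM, and from each companion list up to 3 called genes with the largest absolute log2 fold change are named, with a few not reported here. A few genes are named outside this rule, chosen after their values were seen: NCOA1, NCOA2, NCOA3, NCOR1, ARNTL, FKBP5, CYP3A4, CYP7A1, TRMT112, SLC39A7, TOMM40L and MRPS25, and the markers CDH5, MS4A1, THY1, CD14, LYZ, COL1A1 and COL3A1. Exon overlaps come from GENCODE 29 and promoter windows from RefSeq (GRCh38.p14), with 41 of 46 receptors matched. The statistical script was tested on simulated data.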

Additional observations from a re-analysis of the deposited data

How the results depend on the processing

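There were 3 libraries a group, and receptors with few reads (NR1D1, NR0B2 and those near the filter) carry the widest counting error. Of 476 receptor fold changes under alternatives, 440 kept direction and side of the threshold, 17 gained a call, 16 lost one and 3 changed sign: RARA to -0.0071 without shTRIM15 replicate 3, RARG to 0.0225 without shTRIM15 replicate 1 and NR3C1 to 0.010 without shTRIM15 replicate 3 (leaving out 1 library gave ranges of -0.0071 to 0.0512 for RARA, -0.0572 to 0.0225 for RARG and -0.0705 to 0.010 for NR3C1). None of the 3 was called in any setting. The count of receptors was 5 higher and 3 lower as reported and 11 higher and 7 lower by limma voom, and the cause was not tested. With the replicate block it was 4 higher and 2 lower, and 1913 genes over the whole table were called instead of 2824. Leaving out 1 library gave 1770 to 2339 calls over all genes, with fewer samples in each fit (1869, 1871 and 1770 without shTRIM15 replicates 1, 2 and 3), and 4 to 5 receptors higher and 2 to 4 lower. With no filter the receptor counts were 4 higher and 2 lower, and 1888 calls over all genes. Under the block NR2F6 and NR1H4 lost their calls (adjusted p = 0.0763 and 0.0518). Deviations of same-numbered libraries correlated at 0.0125, 0.00862 and 0.0133, each library best with its own number but under 0.1, so the numbers were not taken as pairs. Of 600 list counts under alternatives, 505 stayed within 1.5 times and 95 moved.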
